A study of Homo sapiens with 13 samples.

Results

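YAP and TAZ are paralogous transcriptional coactivators, and the sites described here are the places where a YAP peak and a TAZ peak lay on top of each other in the same cells. A YAP peak and a TAZ peak were paired when they overlapped by at least 1 bp. Of 7709 YAP peaks, 7122 had a TAZ partner, and of 9798 TAZ peaks, 7107 had a YAP partner, which gave 7137 pairs among the 50467 peaks of the 4 lists in the series. In 85 of these pairs a peak had a further partner. The other 7052, each of 1 YAP and 1 TAZ peak, are the pairs whose ranks, widths and summits are compared below. They lay on 23 chromosomes.

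The study profiled 4 transcriptional regulators by chromatin immunoprecipitation and sequencing (ChIP-seq) in MDA-MB-231, an established human breast cancer cell line, and comprises 13 libraries. The cells were grown in DMEM:F12 with 10% FBS, the labels give no treatment or genetic change, and sonicated cross-linked chromatin was used with the antibodies YAP EP1674Y from Abcam (2 libraries), WWTR1 from Sigma for TAZ (2 libraries) and rabbit IgG from Sigma as the control (2 libraries). The names of the raw files place these 6 libraries on the same sequencing run, and the pooled rabbit IgG was the control for both lists. TEAD4 and JUN, called against mouse IgG and sequenced on other runs, serve here as background. A peak list holds no expression values, so the cell line could not be checked against marker genes.

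YAP and TAZ (the product of WWTR1) are the nuclear effectors of the Hippo pathway, whose kinases phosphorylate them and hold them in the cytoplasm. Neither protein has a DNA-binding domain of its own. Both reach DNA mainly through TEAD transcription factors, and JUN is a subunit of AP-1, a transcription factor often found at the same enhancers. Whether the paralogues rank their sites in the same order, and where they part, was the question addressed.

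Each list is the authors' single product for both replicates of its factor and holds no value per replicate. A difference between YAP and TAZ at a site therefore could not be set against the spread between replicates, and no test between the proteins was possible. Shares are given with exact binomial (Clopper-Pearson) 95% intervals and medians with exact 95% intervals from order statistics. These intervals cover counting error over sites only, and sites share their libraries. Read depth is unknown here. A label that joins the names of both proteins stands in all 9798 TAZ peak names and in 0 YAP peak names. Its meaning could not be found in the labels, so how far the TAZ list is independent of the YAP libraries cannot be told from them.

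The paired peaks covered nearly the same DNA. Within a pair the peaks shared a median of 522 bp, which was 97.0% of the YAP peak, 90.2% of the TAZ peak and 83.0% of the span of both. The smallest overlap in any of the 7052 pairs was 246 bp, far above the 1 bp asked for. On the other side of that rule, the unpaired YAP peak nearest to a TAZ peak was 78 bp away. In 6915 pairs (98.1%, 97.7 to 98.4) each peak covered at least 50% of the other. The TAZ peak contained the whole YAP peak in 2558 pairs (36.3%), the YAP peak contained the TAZ peak in 1245 (17.7%), and in the other 3249 (46.1%) the peaks were staggered.

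Ranks were taken from the fold enrichment over IgG that the authors list for each peak, as percentiles over the 7052 pairs, where 100 is the strongest. The departure of a pair is its YAP percentile minus its TAZ percentile. Spearman's rho between the paralogues was 0.87 over the 7052 pairs, and 0.86 with the authors' −log10 p in place of enrichment. The points share their control libraries and sequencing run. The median absolute departure was 7.51 points (7.25 to 7.77). It was within 5 points at 38.0% of pairs, within 10 points at 60.3% and within 20 points at 84.8%. At the far ends the departures reached −72.7 and 71.7 points.

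**Figure D1:**
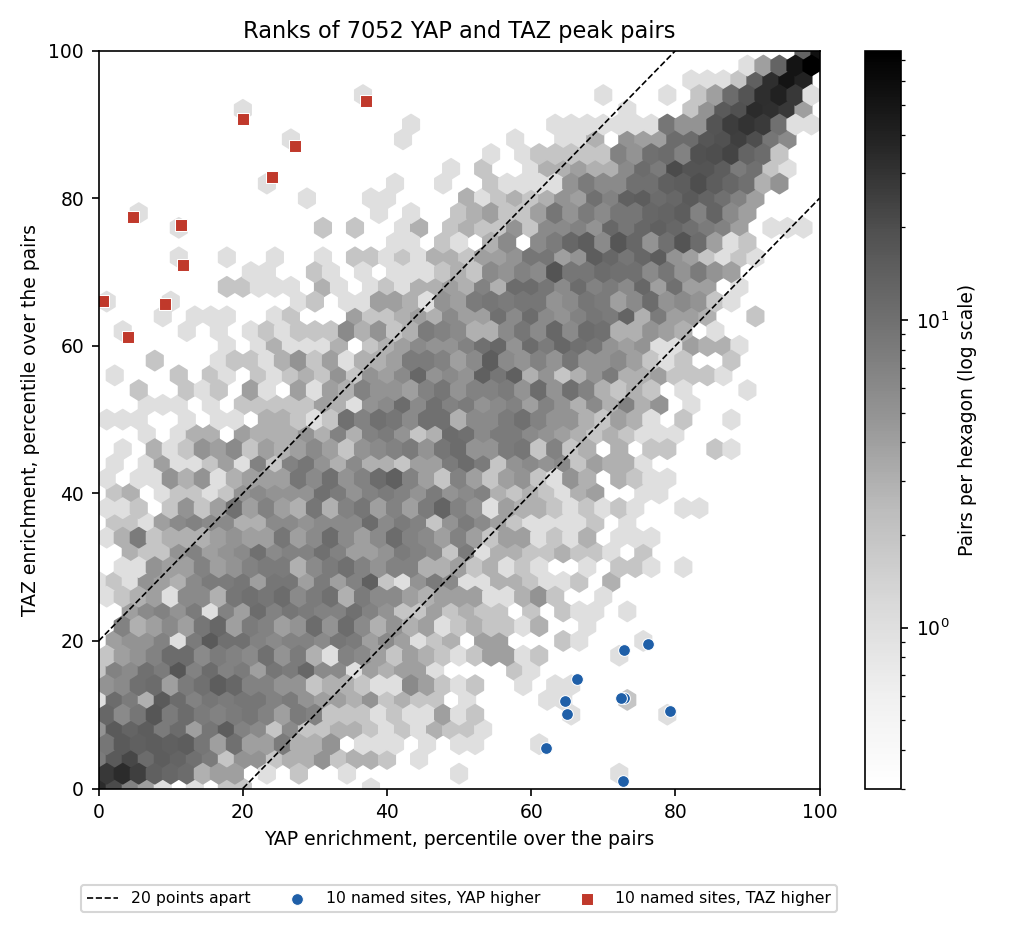
YAP enrichment percentile (horizontal) against TAZ enrichment percentile (vertical) over 7052 pairs, with shading for the number of pairs per hexagon on a log scale, dashed lines 20 points from equality, and coloured symbols for the 20 named pairs with the largest departures. The pairs narrow toward equality at both ends, where bounded percentiles limit departures, and more so at the strong end. The named pairs lie between 51.4 and 72.7 points from equality.

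The order was kept most closely among the strongest sites. The 5 pairs with the highest mean percentile held within-list ranks 1 to 5 in both lists, with summits 4 to 13 bp apart, and all 5 held TEAD4 and JUN. The first of them, on chromosome 4 (hg19, 165125408 to 165126110, the span of both peaks), was enriched 33.8-fold for YAP and 35.8-fold for TAZ. The second, on chromosome 1 (19378908 to 19379524), was enriched 38.2-fold for YAP and 34.9-fold for TAZ. The other 3 lay on chromosome 21 (17935977 to 17936505), chromosome 3 (126471715 to 126472795) and chromosome 22 (41686522 to 41687302).

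Of the 705 pairs in the strongest 10% by YAP, 586 (83.1%, 80.1 to 85.8) were also in the strongest 10% by TAZ. Of the weakest 10% by YAP, 387 of 705 (54.9%, 51.1 to 58.6) were also in the weakest 10% by TAZ. For the strongest 1% the overlap was 56 of 71 pairs (78.9%, 67.6 to 87.7), and for the weakest 1% it was 33 of 71 (46.5%, 34.5 to 58.7). In 10 equal parts by mean percentile, the median absolute departure was 4.00 points in the weakest part, 13.6 in part 4 and 1.26 in the strongest. Percentiles are bounded at both ends, so departures in the outer parts are limited by construction. The weak end is also limited by each list's threshold, since a pair must be called in both lists. The part of these limits in the pattern was not tested.

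YAP ranked at least 20 points above TAZ at 541 pairs (7.67% of the 7052), and TAZ ranked at least 20 points above YAP at 532 (7.54%). The smallest departures counted were 20.016 points for YAP and −20.001 for TAZ, and the largest left out were 19.994 and −19.987. At 30 points the counts were 204 and 192, and at 50 points 12 and 17. Departures average 0 by construction, and the tails were of near equal size in both directions at 20 and 30 points. Where YAP ranked higher, the median enrichment was 8.01-fold for YAP (7.88 to 8.17) and 6.29-fold for TAZ (6.19 to 6.41). Where TAZ ranked higher, it was 6.12-fold for YAP (6.03 to 6.201) and 8.16-fold for TAZ (7.99 to 8.30). By −log10 p, 541 of the 541 and 531 of the 532 departures had the same sign. Of the YAP-higher pairs 83.4% (79.95 to 86.4), and of the TAZ-higher pairs 79.7% (76.0 to 83.0), also departed by 20 points or more on that measure. The measures come from the same reads, so this is a check on the score and not a repeat of the experiment. The 1 exception, named after its values were seen, lay on chromosome 12 (YAP peak 21569571 to 21570142). Its departure was −24.9 points by enrichment and 2.40 by −log10 p.

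The 10 sites where YAP ranked farthest above TAZ lay on 7 chromosomes. They were chosen for this difference, so their values are a description. YAP enrichment ran from 8.45 to 10.5-fold, with a median of 9.56, and TAZ enrichment from 4.29 to 5.99-fold, with a median of 5.53. The groups of values did not overlap, which reflects how the sites were chosen. None of the 10 was among the strongest 1000 YAP peaks, with within-list YAP ranks of 1484 to 2717 of 7709, while TAZ ranks ran from 6707 to 9586 of 9798. TEAD4 was present at 8 of the 10 and JUN at 7, close to the 77.6% and 78.6% of all 7052 pairs.

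The largest YAP departure was on chromosome 3 (190062880 to 190063499). There YAP was enriched 9.58-fold (rank 1947) and TAZ 4.29-fold (rank 9586), at percentiles 72.8 and 1.02. Its summits lay 62 bp apart, and it held a TEAD4 peak of 5.53-fold and no JUN peak. The YAP peak was above the list median of 7.35-fold, and the TAZ peak stood near the bottom of its list. The next, on chromosome 9 (81975290 to 81976111), had YAP at 10.5-fold and TAZ at 5.43-fold, a TEAD4 peak of 10.8-fold and no JUN. The fifth, on chromosome 2 (81778164 to 81778641), had YAP at 9.97-fold, TAZ at 5.99-fold, TEAD4 at 12.4-fold (rank 955 of 8406) and no JUN. These are the 3 of the 10 that lacked JUN, and each held TEAD4.

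The 7 others all held JUN. A site on chromosome 2 (174916384 to 174916948) had YAP at 9.58-fold and TAZ at 5.55-fold without TEAD4. On chromosome 15 (33396413 to 33396949) the values were 9.55 and 5.55-fold, and on chromosome 10 (95308290 to 95308839) 8.45 and 5.02-fold. A second site on chromosome 10 (17130426 to 17130818) had narrow peaks of 366 bp for YAP and 360 bp for TAZ, enriched 8.75 and 5.37-fold. The remaining sites were on chromosome 4 (78500451 to 78501265, without TEAD4), chromosome 18 (61549838 to 61550387) and chromosome 9 (121339377 to 121339796). At the last of these YAP was enriched 8.87-fold and TAZ 5.71-fold, with summits 9 bp apart.

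The 10 sites where TAZ ranked farthest above YAP lay on 9 chromosomes. YAP enrichment ran from 4.28 to 6.84-fold, with a median of 5.49, and TAZ enrichment from 8.70 to 15.2-fold, with a median of 10.5. Again the values did not overlap, which reflects the same choice of sites by their difference. Within-list ranks were 4572 to 7646 for YAP and 495 to 2893 for TAZ. JUN was present at all 10 of these sites and TEAD4 at 7, against 78.6% and 77.6% of all 7052 pairs, and 10 sites are too few to set these apart.

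The largest TAZ departure was on chromosome 20 (33802957 to 33803688), where YAP was enriched 5.03-fold (rank 7264) and TAZ 10.6-fold (rank 1657), at percentiles 4.79 and 77.5. It held JUN at 19.7-fold and TEAD4 at 5.03-fold. The second, on chromosome 8 (67035761 to 67036879), had YAP at 5.97-fold, TAZ at 14.0-fold and a JUN peak of 33.7-fold, rank 22 of the 24554 JUN peaks. JUN ranks at the 10 sites ran from 22 to 10517, and at the 7 YAP-higher sites with JUN from 3382 to 17702. Low JUN ranks among the TAZ-higher sites were 10517 on chromosome 10, 9317 on chromosome X and 5655 on chromosome 19. JUN was near the top of its list at a site on chromosome 4 (1036972 to 1037749, JUN 29.9-fold, rank 86) and at one on chromosome 11 (9781134 to 9781765, JUN 25.4-fold, rank 394). At the chromosome 4 site YAP was enriched 6.84-fold and TAZ 15.2-fold, and the TAZ summit lay 413 bp from the YAP summit. At the chromosome 11 site the values were 5.50 and 9.77-fold. Neither of these sites held TEAD4.

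At a site on chromosome 19 (45981073 to 45982620) the peaks differed in shape as well as in rank. The YAP peak was 468 bp wide and enriched 4.28-fold, the TAZ peak 1548 bp wide and enriched 9.20-fold, and the summits lay 460 bp apart. The remaining TAZ-higher sites were on chromosome X (149858293 to 149859135, 5.47 and 10.5-fold), chromosome 2 (47998273 to 47998785, 6.33 and 12.6-fold, without TEAD4), chromosome 1 (238811032 to 238811731, 6.17 and 11.5-fold) and chromosome 10. The chromosome 10 sites (31423341 to 31424045 and 106908820 to 106909751) had YAP at 4.91 and 5.33-fold and TAZ at 8.70 and 9.16-fold. Summits at all 10 were 26 to 460 bp apart, with a median of 52 bp, against 9 to 91 bp and a median of 41 bp at the 10 YAP-higher sites.

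**Figure D2:**
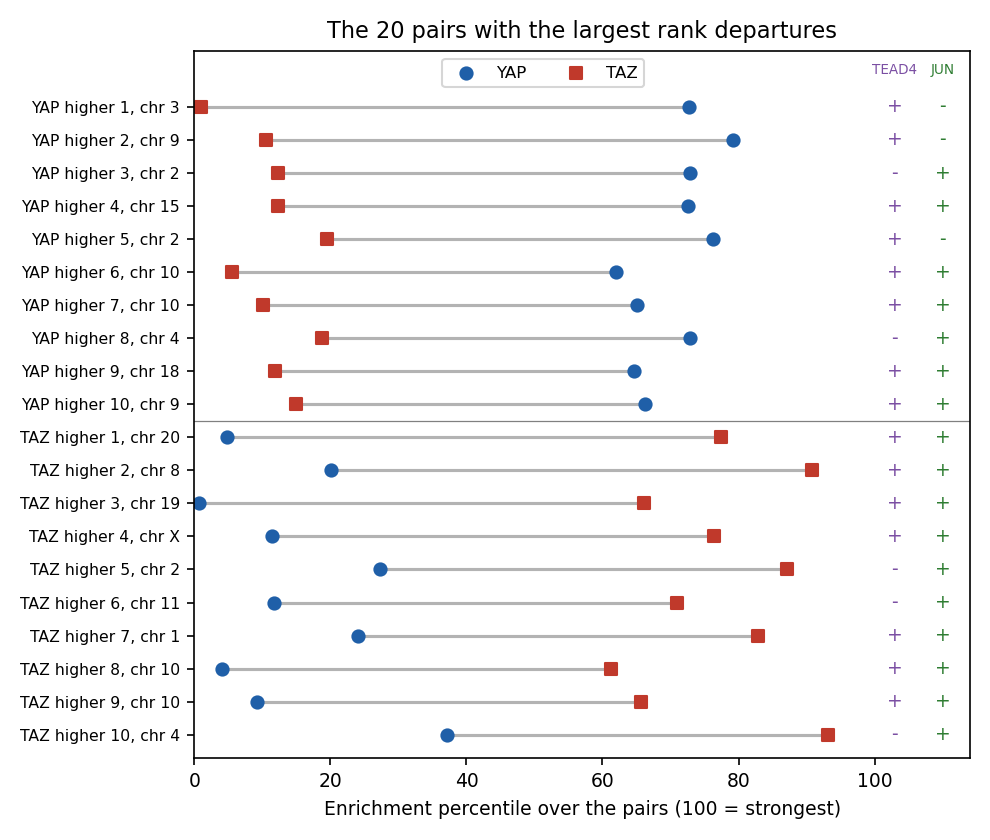
Enrichment percentiles over the pairs for YAP (blue circles) and TAZ (red squares) at the 10 pairs with the largest YAP departure (upper block) and the 10 with the largest TAZ departure (lower block), labelled by chromosome; plus and minus signs give the presence of a TEAD4 and a JUN peak. JUN was present at 7 of the upper 10 and 10 of the lower 10, TEAD4 at 8 and 7.

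Over the larger groups, JUN was present less often where YAP ranked higher, a measure that had no part in choosing the pairs. A JUN peak overlapped 371 of the 541 YAP-higher pairs (68.6%, 64.5 to 72.5), 450 of the 532 TAZ-higher pairs (84.6%, 81.2 to 87.5) and 4720 of the 5979 pairs within 20 points (78.9%, 77.9 to 79.97). For reference, the YAP-higher and TAZ-higher groups were 7.67% and 7.54% of all pairs. The 3 intervals did not overlap, but they cover counting error over sites only and hold no spread between replicates. TEAD4 presence gave another picture: 71.9% (67.9 to 75.7) of the YAP-higher pairs and 72.4% (68.4 to 76.1) of the TAZ-higher pairs held it, both below the 78.6% (77.5 to 79.6) of pairs within 20 points. The departing groups were also weaker, with a median mean percentile of 40.9 for YAP-higher and 38.8 for TAZ-higher pairs against 52.9 within 20 points. Their part in the TEAD4 shares was not tested.

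The JUN shares were also taken with other definitions and within parts of the pairs. The span of both peaks had a median of 572 bp at YAP-higher pairs, 671 bp at TAZ-higher pairs and 672 bp within 20 points. The part of span width in the JUN shares was not tested. Counting only JUN summits within 200 bp of the midpoint of the YAP and TAZ summits, the shares were 64.5% (60.3 to 68.5) where YAP ranked higher, 79.3% (75.6 to 82.7) where TAZ did and 73.9% (72.8 to 75.02) between. Pairs were also divided into 3 equal parts by mean percentile, a choice made after seeing the data. JUN was present at 68.7% of YAP-higher and 82.0% of TAZ-higher pairs in the weakest part (n = 179 and 205). The shares were 69.6% and 86.6% in the middle part (n = 316 and 283), and 60.9% (45.4 to 74.9) and 84.1% (69.9 to 93.4) in the strongest (n = 46 and 44). With departures of at least 10 points the shares were 71.8% and 83.1%, and with at least 30 points 63.7% (56.7 to 70.3) and 88.0% (82.6 to 92.3).

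Across 10 equal parts of the pairs by departure, JUN presence was 83.9% (80.9 to 86.5) in the part with TAZ farthest above YAP and 69.4% (65.8 to 72.7) in the part with YAP farthest above TAZ. The parts between did not fall at every step: part 3 was at 79.7% (76.6 to 82.6) and part 4 at 83.0% (79.997 to 85.7), with intervals that overlapped. TEAD4 was highest in the middle, at 85.0% (82.1 to 87.5) in part 5, and lower at both ends, at 72.8% and 71.6%. Pair strength moved with these parts. Median percentiles were 75.2 for YAP and 76.5 for TAZ in part 5, against 24.4 and 53.9 in part 1 and 55.2 and 26.5 in part 10. In 10 equal parts by mean percentile, TEAD4 presence ran from 57.2% in the weakest to 99.9% in the strongest, and JUN presence from 76.1% to 81.4%. The part of strength in the TEAD4 values by departure was not tested.

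**Figure D3:**
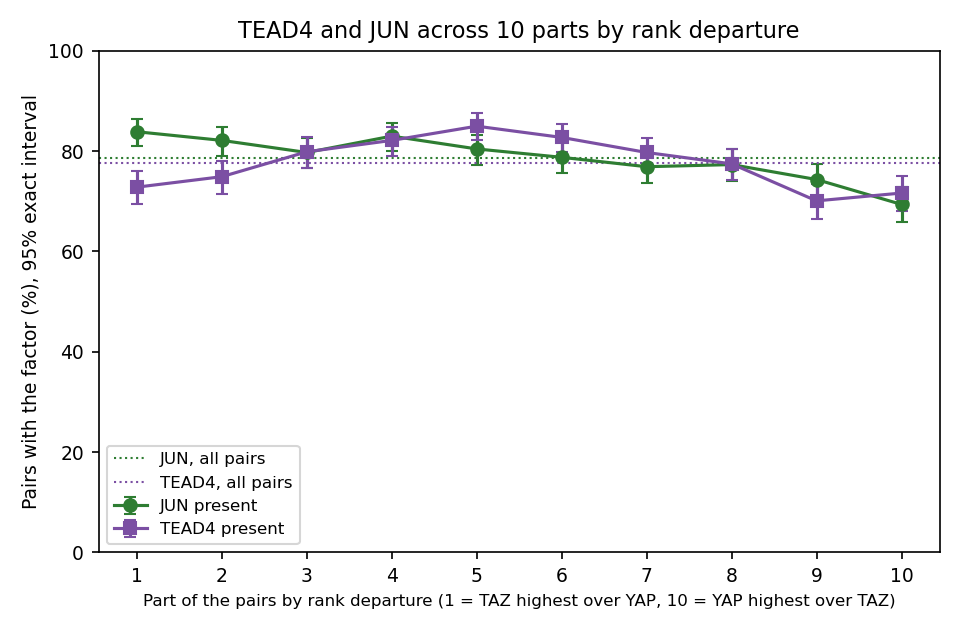
Share of pairs with a JUN peak (green circles) and a TEAD4 peak (purple squares), in percent with 95% exact binomial intervals, in 10 equal parts of 7052 pairs by rank departure, from TAZ farthest above YAP (part 1) to YAP farthest above TAZ (part 10). Dotted lines give all pairs, 78.6% for JUN and 77.6% for TEAD4; JUN runs from 83.9% to 69.4%, and TEAD4 peaks at 85.0% in part 5.

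Read the other way, pairs without JUN leaned to YAP. Of the 1511 pairs without JUN, YAP ranked at least 20 points higher at 11.3% (9.70 to 13.0) and TAZ at 5.43% (4.34 to 6.69), against 7.67% and 7.54% of all pairs. Of the 5541 pairs with JUN, the shares were 6.70% (6.05 to 7.39) and 8.12% (7.42 to 8.87). The median departure was small in each class. It was −0.40 points (−0.65 to −0.16) at the 4269 pairs with both TEAD4 and JUN and 1.26 (0.65 to 1.89) at the 1205 with TEAD4 alone. It was 0.27 (−0.48 to 0.91) at the 1272 with JUN alone and 2.74 (1.57 to 4.73) at the 306 with neither. These medians were all small beside the median absolute departure of 7.51 points.

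JUN strength was compared where JUN was present. Over the pairs with JUN, the median JUN percentile was 54.7 (48.3 to 59.4) at the TAZ-higher pairs and 43.6 (39.2 to 49.2) at the YAP-higher pairs, and these intervals overlapped slightly. In 5 equal parts by JUN enrichment the median departure was 0.35, −0.07, −0.57, −0.40 and −1.01 points from weakest to strongest. Spearman's rho between departure and JUN percentile was only −0.05 over 5541 pairs. The median TEAD4 percentile, over pairs with TEAD4, was 36.6 (33.2 to 40.4) at YAP-higher and 35.5 (32.8 to 40.6) at TAZ-higher pairs, with no separation.

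The paralogues ranked sites far more like each other than like either of these factors. At the 5474 pairs with TEAD4 the median absolute difference in percentile was 6.92 points between YAP and TAZ, 15.8 between YAP and TEAD4 and 15.7 between TAZ and TEAD4. At the 5541 pairs with JUN it was 7.38 between YAP and TAZ, 25.7 between YAP and JUN and 25.4 between TAZ and JUN. YAP and TAZ share a run and a control that TEAD4 and JUN do not, and the run, the control and the factor cannot be told apart here.

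TAZ peaks were slightly wider. The median width was 564 bp for YAP (559 to 570) and 616 bp for TAZ (609 to 622), with a median difference within pairs of 34 bp (31 to 37). The TAZ peak was the wider at 4439 pairs (62.9%, 61.8 to 64.1), the YAP peak at 2587 (36.7%), and 26 pairs had equal widths. The extra width was split evenly, with a median of 11 bp (9 to 13) at each end. Called width also rose with strength in each list. Over the 7052 pairs, Spearman's rho between width and fold enrichment was 0.31 for YAP and 0.31 for TAZ. Between width and −log10 p it was 0.42 for YAP and 0.43 for TAZ.

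The width difference moved with rank. Where YAP ranked at least 20 points higher (7.67% of pairs), the median widths were 511 bp for YAP and 509 bp for TAZ, and the median difference was 0 bp (−7 to 8). The TAZ peak was the wider at 49.7% (45.4 to 54.0) of these pairs. Where TAZ ranked higher (7.54%), the widths were 544.5 and 626 bp, the difference was 66 bp (51 to 82), and TAZ was the wider at 71.1% (67.0 to 74.9). The TAZ excess in width was thus not seen at the median of the YAP-higher pairs, and the interval also left little room for a YAP excess. Over all pairs the rho between departure and the log2 ratio of TAZ to YAP width was −0.11.

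**Figure D4:**
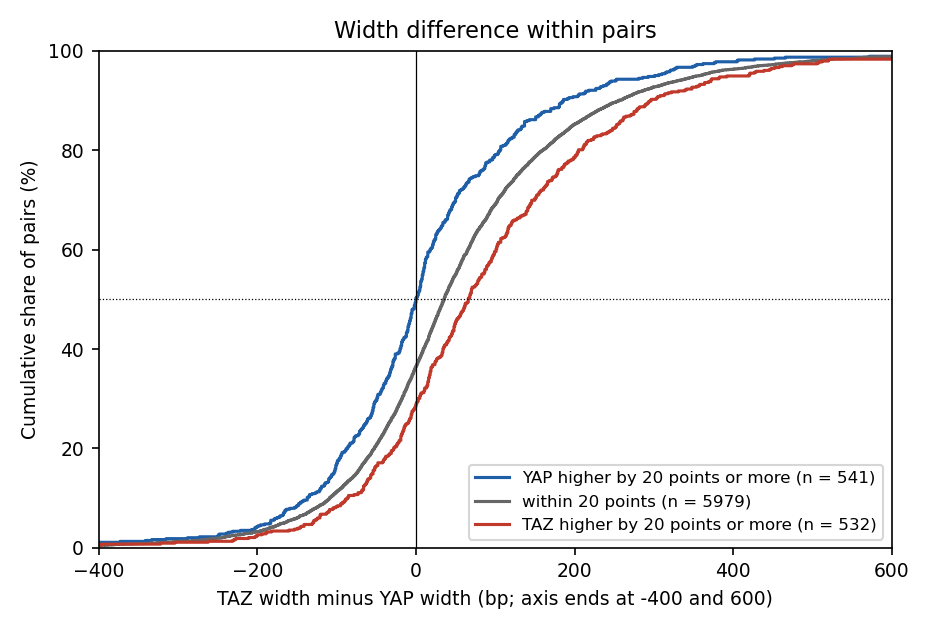
Cumulative share of pairs (percent) by TAZ width minus YAP width (bp) for 541 YAP-higher pairs (blue), 5979 pairs within 20 points (grey) and 532 TAZ-higher pairs (red). The curves cross 50% at 0, 36 and 66 bp.

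The widest TAZ peak relative to YAP, on chromosome 6 (26285366 to 26287069), was 1704 bp against 360 bp for YAP, a ratio of 4.73, and its summits were 914 bp apart, the farthest of any pair. Its enrichment was low in both lists, 4.54-fold for YAP and 5.604-fold for TAZ, a departure of −11.4 points. By −log10 p the values were 32.2 and 131, and the departure was −67.4. It was 1 of 8 pairs on chromosome 6 between 26 and 29 Mb, whose median departure was −0.31 points. Others with a far wider TAZ peak were on chromosome 3 (99620043 to 99621260, 339 against 1218 bp) and chromosome 14 (21081280 to 21082585, 364 against 1306 bp). At the chromosome 14 site the departure also grew, from −13.7 by enrichment to −37.4 by −log10 p. Departures by these measures differed by 20 points or more at 46 pairs in all, which had a median mean percentile of 8.02.

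In the other direction, YAP was the far wider peak at a site on chromosome 3 (171591967 to 171593177, 1211 against 356 bp), with almost equal enrichment of 4.98-fold for YAP and 4.93-fold for TAZ. It was the far wider also on chromosome 10 (11923632 to 11925120, 1489 against 519 bp) and chromosome 2 (224463822 to 224464641, 820 against 296 bp). At the chromosome 10 site the wider YAP peak was the lower in rank, by 34.4 points. Width and rank therefore did not move together at each of these sites.

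Summits of the paralogues nearly coincided. The median distance was 17 bp (16 to 17), with 2.31% of pairs at 0 bp, 34.8% within 10 bp, 89.2% within 50 bp and 98.2% within 100 bp. There was no shift to a side: the median signed offset was 0 bp, and the TAZ summit had the higher coordinate at 50.1% (49.0 to 51.3) of the 6889 pairs with unequal summits. The median distance was 21 bp in the weakest of 10 equal parts by mean percentile and 10 bp in the strongest. It was 20 bp (18 to 22) at YAP-higher pairs, 23 bp (21 to 26) at TAZ-higher pairs and 16 bp (15 to 16) within 20 points. The departing groups were also weaker, and the median distance over all pairs was 20 bp in part 4 and 18 bp in part 5 by mean percentile. The part of strength in the distances of these groups was not tested.

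**Figure D5:**
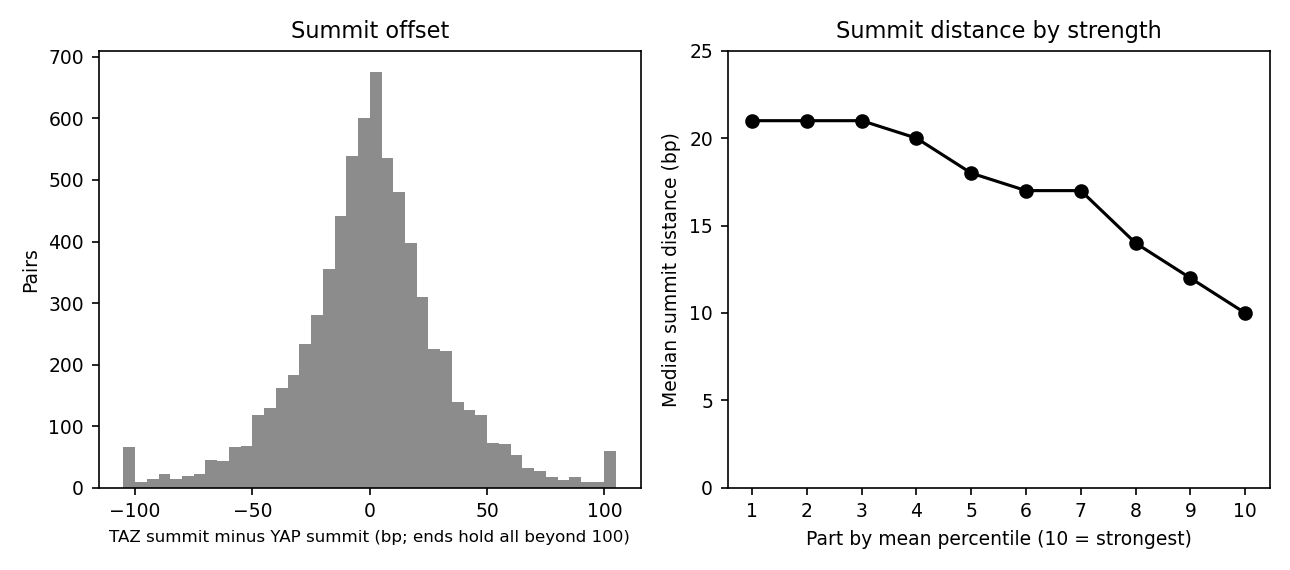
Left, number of pairs by TAZ summit minus YAP summit (bp, bins of 5 bp, with all pairs beyond 100 bp in the end bins); right, median summit distance (bp) in 10 equal parts of the pairs by mean percentile, part 10 being the strongest. Offsets centre on 0 bp, and the median distance falls from 21 to 10 bp.

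Neither paralogue sat much closer to TEAD4 or JUN. At pairs with 1 TEAD4 peak the median distance to its summit was 16 bp from YAP and 16 bp from TAZ, and the TAZ summit was the nearer at 51.9% (50.6 to 53.3) of the 5236 pairs with unequal distances. For JUN the medians were 27 bp from YAP and 26 bp from TAZ, and TAZ was the nearer at 51.0% (49.7 to 52.3) of 5367. These shares lay within 4 points of even, the bound set by the intervals.

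At 54 pairs (0.766%, 0.576 to 0.998) the summits were more than 200 bp apart. These were broad sites, with median widths of 930.5 bp for YAP and 1011 bp for TAZ against 563 and 614 bp at the other pairs. JUN was present at 50 of the 54 (92.6%, 82.1 to 97.9) and TEAD4 at 39 (72.2%, 58.4 to 83.5), against 78.5% and 77.7% of the other pairs. The part of width in these shares was not tested. After the chromosome 6 site above, the farthest summits were on chromosome 9 (38046395 to 38048308) and chromosome 5 (153599938 to 153601454), 823 and 746 bp apart. On chromosome 9 both peaks were broad, 1684 bp for YAP and 1914 bp for TAZ, and near each other in enrichment, 9.70 and 9.05-fold.

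Departures were spread along the genome. Per chromosome, rho ran from 0.73 (X, 106 pairs) to 0.92 (chromosome 21, 61 pairs), and the median departure from −2.28 points to 1.12. The interval of the median departure lay below 0 on chromosome X (−6.10 to −0.03) and chromosome 15 (−3.88 to −0.14) and above 0 on chromosome 11 (0.27 to 1.67), 3 of 23 chromosomes. Neighbouring pairs hardly departed together. For the 521 pairs with the YAP summit of the next pair within 5 kb of their own, rho between the departures of neighbours was 0.05. For gaps of 5 to 20 kb between these summits it was 0.07 (n = 770). Low values were not particular to departure: rho between the mean percentiles of neighbours was 0.05 and 0.08 for the same gaps.

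Peaks without a partner were weak on the whole. The 587 unpaired YAP peaks (7.61% of the YAP list) had a median enrichment of 5.85-fold against 7.54-fold for paired YAP peaks, and the 2691 unpaired TAZ peaks (27.5% of the TAZ list) had 5.65-fold against 7.83-fold. Few lay just beside the other paralogue: a TAZ peak was within 1000 bp of 4.43% (2.91 to 6.42) of unpaired YAP peaks, and a YAP peak within 1000 bp of 4.57% (3.81 to 5.43) of unpaired TAZ peaks. Median gaps were 50445 and 57791 bp. TEAD4 was present at 37.8% (33.9 to 41.9) of unpaired YAP and 38.9% (37.0 to 40.7) of unpaired TAZ peaks, and JUN at 57.1% (53.0 to 61.1) and 64.7% (62.9 to 66.5). At the 7052 pairs the shares were 77.6% for TEAD4 and 78.6% for JUN, counted there over the span of both peaks. Weak pairs held TEAD4 less often. In the weakest of 10 equal parts by mean percentile (medians 5.11-fold for YAP, 5.04-fold for TAZ) the shares were 57.2% for TEAD4 and 76.1% for JUN. In part 2 (5.81 and 5.83-fold) they were 60.9% and 76.9%. The part of strength in the shares at unpaired peaks was not tested. The unpaired peaks were also narrower, with medians of 424 bp for YAP and 504 bp for TAZ against 565 and 617 bp for paired peaks. The TAZ list is the longer, so the shares of unpaired peaks move with list length. With the TAZ list reduced to the length of the YAP list by −log10 p, 83.7% of YAP peaks and 83.5% of TAZ peaks were paired. Nearly all pairs hold a single peak of each list, so near equal shares follow from equal list lengths by construction.

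Among unpaired peaks, the strongest by enrichment for YAP was on chromosome 6 (86225873 to 86226243, 11.8-fold, rank 1025) and that for TAZ on chromosome 15 (26020433 to 26021034, 20.2-fold, rank 154). TEAD4 was present at the first of these and absent from the second, and JUN was absent from both. By −log10 p, the TAZ peak was on chromosome 16 (686269 to 687077, 18.4-fold, −log10 p 253) and held TEAD4. The YAP peak by that measure, on chromosome 6 (41909007 to 41909384), had a −log10 p of 165 and rank 253, yet at 2.54-fold it was the lowest of the YAP list in enrichment.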

How the data were processed

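ChIP-seq libraries were grouped by the factor in their titles or, for controls, by antibody. The submitters' processing notes name MACS2 2.0.10, Bowtie 0.12.7, CASAVA, SAMtools and build hg19. The authors' peak calling followed, per the labels, the irreproducible discovery rate (IDR) approach with a value of 0.01, which keeps peaks that recur between replicates. Any further filter is not given in the sources used. Each deposited peak has a position, a summit offset, a fold enrichment over IgG (a ratio) and a −log10 p. The score the authors deposited equalled 10 times that −log10 p, to within 1, in 100% of cases and served only for that check.

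Peaks were paired on an overlap of 1 bp, and ranks were recomputed as percentiles over pairs with no further partner. TEAD4 or JUN counted as present when a peak overlapped the span of both peaks. Computations used Python 3.11.15, pandas 2.3.3 and SciPy 1.17.1, and pairing was tested on simulated lists. Without read depths, no precision from depth is given.

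Named sites were the 10 largest departures in each direction with the same sign by −log10 p, the 5 highest mean percentiles, the 3 farthest summits, the 3 largest and 3 smallest width ratios, and the strongest unpaired peaks. Members and rules were chosen with earlier results of these data known. No hg19 genome or annotation was used here, so sites are given by position without genes or sequence. The pairing was repeated with a TAZ list of YAP length, with the stronger 50% of each list, with summits at most 200 bp apart, and with 50% reciprocal overlap. Further alternatives were all overlapping pairs, chromosome 6 from 26 to 29 Mb or each chromosome left out, −log10 p ranks, and departures of 10 and 30 points. Division into 3 parts by mean percentile was added after seeing the data.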

Additional observations from a re-analysis of the deposited data

How the results depend on the processing

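Of 94 recomputed values for 13 results, 79 stayed within the main value's interval (for rho, 1 SD over chromosomes, 0.0392, and for counts, 1.5 times) and 15 moved beyond it. A change of sign was possible only for rho (9 values) and the median width difference (8 values), and neither showed one. The other results are shares, counts or absolute values, which cannot change sign. A reciprocal overlap of 50% lowered the paired share to 90.01% of YAP and 70.8% of TAZ peaks, and summits within 200 bp lowered that of YAP to 91.4%. With the TAZ list at the length of the YAP list the shares were 83.7% and 83.5%, near equal by construction. With the stronger 50% of each list, 272 of 3541 pairs ranked at least 20 points higher by YAP and 255 by TAZ, against 541 and 532 of 7052. These counts fall with the number of pairs, so their move beyond 1.5 times does not show a change in share. With the same lists the median summit distance was 13 bp, the median width difference 40 bp, and TAZ was the wider at 64.6%. Ranks by −log10 p gave a median absolute departure of 7.78 points. JUN was present at 63.7% of pairs with YAP higher by 30 points and 88.0% with TAZ higher by 30. Of TAZ-higher pairs, 79.3% had a JUN summit within 200 bp. In the strongest of 3 parts, JUN was present at 60.9% of YAP-higher pairs. No paired analysis was possible because each factor has 1 list for both replicates. For the same reason no replicate could be left out. Depth, copy number and DNA sequence at the sites were not analysed here.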
